A study of Mus musculus with 10 samples.

Results

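The genes described here make, break down and read cyclic AMP: the adenylyl cyclases (Adcy), the cyclic nucleotide phosphodiesterases (Pde) and the catalytic and regulatory subunits of protein kinase A, or PKA (Prkac and Prkar). They were taken by a rule on the gene symbol that uses no measured value, and a probe set was used only where it was annotated to that gene and no other. The rule found 38 of the 18193 genes on the chips, with 99 of 45137 probe sets. They comprised 10 cyclases, 22 phosphodiesterases, 2 catalytic subunits and 4 regulatory subunits.

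Total RNA of medulloblastoma, a tumour of the cerebellum, was set against RNA of adjacent cerebellar tissue that the submitters call wild type. The 10 arrays were 3 medulloblastoma and 2 cerebellum samples on each of 2 Affymetrix chips, 430A and 430B, which mostly carry different probe sets. All of these samples, cerebellum included, came from mice of the genotype CAGGS-CreER;R26-SmoM2 that had received 1 mg of tamoxifen per 40 g of body weight on postnatal day 10. SmoM2 is a constitutively active Smoothened, the transducer at the head of Hedgehog signalling, and tamoxifen turns on the CreER recombinase that releases its expression from the R26 locus. The CAGGS promoter drives CreER broadly and not in 1 cell type, so recombined cells may be present in the adjacent tissue as well. The labels do not say whether tumour and cerebellum came from the same animals, and give neither age at collection nor sex.

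Adenylyl cyclases make cyclic AMP from ATP under the control of stimulatory (Gs) and inhibitory (Gi) G proteins and, for some isoforms, of calcium. Phosphodiesterases hydrolyse it, and PKA is held inactive by pairs of regulatory subunits until cyclic AMP binds them and frees the catalytic subunits. In granule neuron precursors of the developing cerebellum, PKA at the primary cilium phosphorylates the GLI transcription factors and keeps Hedgehog target genes low, while in Purkinje and mature granule neurons the same kinase serves synaptic plasticity.

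Marker genes of several cell types differed between medulloblastoma and cerebellum. All 8 granule neuron precursor markers tested were higher in medulloblastoma, among them Dcx, Ccnd2 and Top2a, and their summed intensity was 4175 to 6109 in medulloblastoma and 170 to 487 in cerebellum. All 8 Purkinje cell markers and all 9 mature granule neuron markers tested were lower, with sums of 254 to 511 and 972 to 1410 in medulloblastoma, against 13510 to 17359 and 11288 to 12502 in cerebellum. Lower too were 7 of 8 Bergmann glia and astrocyte markers (sums of 479 to 918 in medulloblastoma and 3655 to 4610 in cerebellum), 6 of 6 oligodendrocyte markers (168 to 322 and 3921 to 4857) and 3 of 6 GABAergic interneuron markers (179 to 225 and 1327 to 1803). Of 8 microglia markers 5 were higher (1073 to 1394 in medulloblastoma and 371 to 453 in cerebellum), and 1 of 6 endothelium and pericyte markers was lower (341 to 402 and 366 to 440). Not all precursor signal was absent from the cerebellum samples: Top2a, which marks dividing cells, read 65.4 in cerebellum 1 and 4.65 in cerebellum 2 on the 430A chip. Dcx read 95.3 and 21.9 in the same order, and the summed precursor intensity was 487 in cerebellum 1 and 170 in cerebellum 2. Not every precursor marker differed so, as Barhl1 read 28.1 and 28.5. The part of this shift in cell types in any result below was not tested, and in bulk RNA fewer cells of a type and less RNA per cell cannot be told apart. Median intensities of the arrays were 33.3 to 35.9 on 430A and 22.5 to 24.0 on 430B. The tumour numbers in the titles do not seem to carry over between chips. Over the 100 probe sets both chips hold, the deviations of medulloblastoma 2 on 430A correlated at 0.86 with those of medulloblastoma 3 on 430B. With those of medulloblastoma 2 on 430B they correlated at -0.68. Whether these deviations follow the tumour or the handling of the arrays was not tested. Values of the 2 chips are therefore not joined by tumour number.

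Of the 38 genes, 35 had a probe set bright enough to be tested. By 1 representing probe set per gene, 4 were higher and 11 lower in medulloblastoma and 20 did not pass the test (limma on log2 intensity, Benjamini-Hochberg adjusted p below 0.05 over each chip). That is 42.9% of the tested members called, beside 26.8% of all 14702 genes tested. In the higher direction the share was 11.4% of members, beside 10.7% of all genes, and in the lower direction 31.4%, beside 16% of all genes. The median log2 fold change, medulloblastoma over cerebellum, was -0.33 for the members and -0.05 for all genes. Intensities of the groups did not overlap for 21 of the 35 members, which is close to the 52.3% of all genes for which they did not. A log2 fold change of at least 1 in size beside the call was reached by 9 of the 35 tested members, and by 1989 of the 14702 genes tested (13.5%).

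The 4 higher members were Prkar2b, Pde3b, Adcy7 and Pde7a, and the 11 lower ones were Adcy1, Pde9a, Prkar1a, Adcy9, Pde4b, Prkar1b, Adcy8, Pde8a, Prkacb, Adcy2 and Adcy5. By family, 1 of 10 cyclases was higher and 5 were lower, and 2 of 19 phosphodiesterases were higher and 3 lower. Of the 4 regulatory subunits 1 was higher and 2 were lower, and 1 of 2 catalytic subunits was lower. Over all 82 tested probe sets of the members, 13 were higher and 26 lower. Of all probe sets tested, 32.2% were called on 430A (13.1% higher and 19% lower) and 17.6% on 430B (7.85% higher and 9.77% lower). Of the 35 members tested, 14 had 1 tested probe set and could not disagree. None of the 21 with several had probe sets called in opposite directions, but not all of these had the 2 called probe sets this requires.

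**Figure D1:**
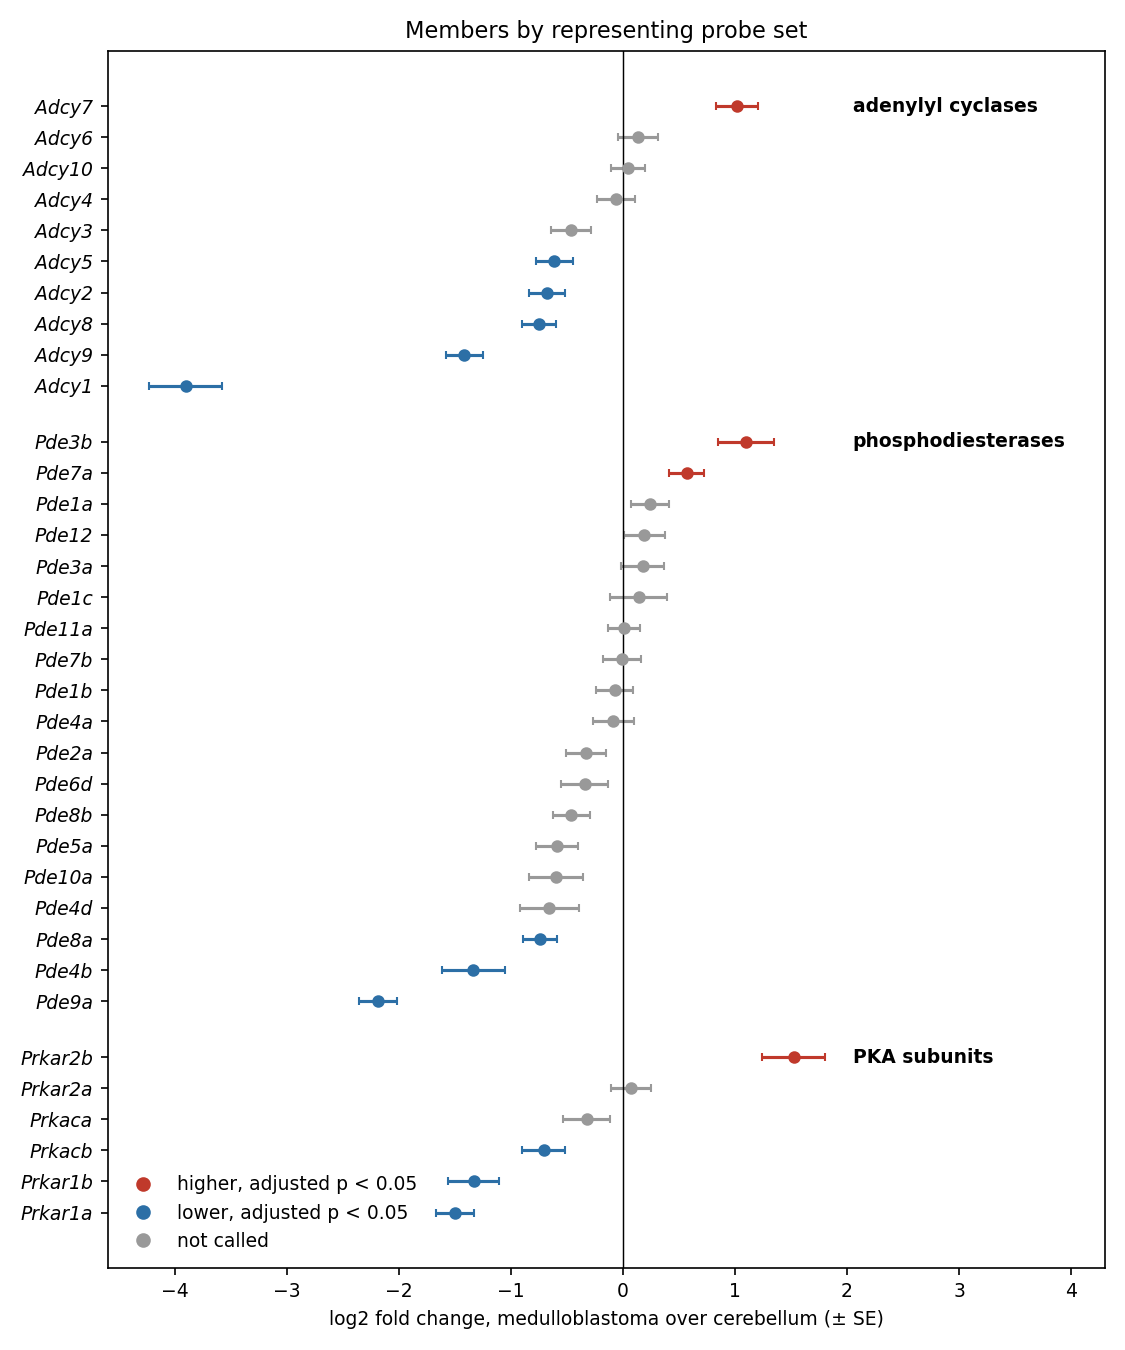
Log2 fold change of each tested member, medulloblastoma over cerebellum, for its representing probe set (x axis; points with bars of 1 standard error, 3 medulloblastoma and 2 cerebellum arrays), grouped by family down the page and coloured by call. The cyclases extend furthest to the left, with Adcy1 at -3.90, and most phosphodiesterases lie near 0.

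The cyclases were led by Adcy1, a cyclase that calcium and calmodulin stimulate. Its representing probe set, on 430B, read 67.0, 93.6 and 155 in the 3 medulloblastomas, against 1535 and 1919 in the 2 cerebellum samples. Every medulloblastoma lay far below both cerebellum samples. The log2 fold change was -3.90 ± 0.33 (SE; limma adjusted p = 2.82e-05), a 15.0-fold lower level on the log2(intensity + 16) scale. The second Adcy1 probe set, which is dimmer, was lower by the same test, at -1.76 ± 0.18.

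Adcy9, a widely expressed cyclase that responds poorly to forskolin, read 26.8, 35.4 and 27.8 in medulloblastoma, against 101 and 112 in cerebellum. The groups were well apart, with a log2 fold change of -1.41 ± 0.16 (limma adjusted p = 5.92e-05). All 4 of its probe sets, on both chips, were lower, by 0.62 to 1.41 on the log2 scale.

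Smaller falls were found for the other called cyclases. Adcy8, the second calcium-stimulated cyclase of neurons, had a log2 fold change of -0.75 ± 0.15, and Adcy2, which the beta-gamma subunits of G proteins stimulate, had -0.68 ± 0.16. Adcy5, which calcium inhibits and which is best known from the striatum, had -0.61 ± 0.17. The Adcy5 call was not shared by its other 3 probe sets, whose log2 fold changes lay between -0.09 and 0.06. It was also lost without medulloblastoma 1 (-0.63, adjusted p = 0.0636), without medulloblastoma 2 (-0.55, adjusted p = 0.128), without cerebellum 2 (-0.42, adjusted p = 0.281), with no filter on dim probe sets (adjusted p = 0.0501) and with the mean over its probe sets (-0.18, adjusted p = 0.374). The call of Adcy2 was lost without cerebellum 2 (-0.64, adjusted p = 0.0787).

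Adcy7 went the other way. It is stimulated by beta-gamma subunits and is prominent in cells of the immune system, and it read 27.8, 26.4 and 48.2 in medulloblastoma, against 8.54 and 8.22 in cerebellum. All 3 medulloblastomas were above both cerebellum samples, with a log2 fold change of 1.01 ± 0.19 (limma adjusted p = 0.00155). The cerebellum values are near the bottom of the chip's range, so the size of this difference turns on the pseudocount, from 1.85 with 1 added to each intensity to 0.43 with 64 added. Its other 2 probe sets were too dim to be tested, and in both the medulloblastoma values (10.5 to 13.8) lay above the cerebellum values (5.40 to 9.83). Microglia markers were higher in the same medulloblastomas, with C1qb at 378, 230 and 296 in medulloblastoma and 43.7 and 44.8 in cerebellum, whereas Csf1r, at 181, 191 and 218 in medulloblastoma and 207 and 172 in cerebellum, did not pass the test (0.05 ± 0.20, adjusted p = 0.89). The part of microglia in the Adcy7 value was not tested.

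The other 4 cyclases did not pass the test. Their log2 fold changes ran from -0.46 ± 0.18 for Adcy3, the cyclase of neuronal primary cilia and olfactory neurons (adjusted p = 0.0721), to 0.13 ± 0.18 for Adcy6. For Adcy3 the difference passed the test without medulloblastoma 2 (-0.55, adjusted p = 0.0209). Calls rose over the whole 430A chip without that array, to 6516 probe sets, beside 5460 with all arrays. Adcy4 and the soluble, bicarbonate-activated Adcy10 had -0.06 ± 0.17 and 0.04 ± 0.15.

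**Figure D2:**
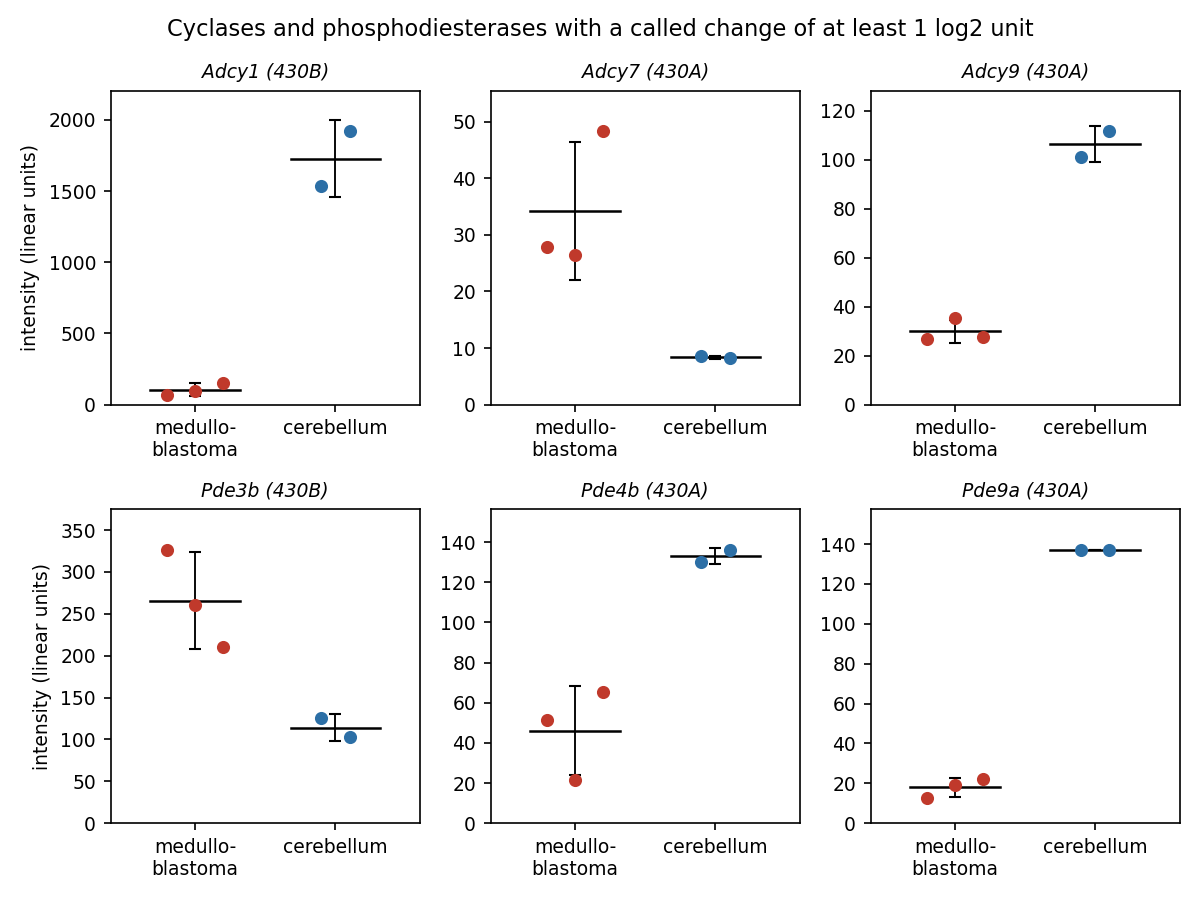
Intensity on each array (y axis, linear units from 0) for the cyclases and phosphodiesterases that passed the test with a log2 fold change of at least 1 in size, medulloblastoma left and cerebellum right in each panel; each point is 1 array, and the lines and bars are the mean and SD of 3 medulloblastoma or 2 cerebellum arrays. In no panel do the groups overlap: the Adcy1 medulloblastoma points lie between 67.0 and 155, and the cerebellum points at 1535 and 1919.

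Among the phosphodiesterases, Pde9a stood lowest relative to cerebellum. This enzyme hydrolyses cyclic GMP with high affinity and does not act on cyclic AMP to any extent, so it belongs to the set by its symbol and not by its substrate. It read 12.6, 19.1 and 22.0 in medulloblastoma, against 137 in each of the 2 cerebellum samples. The log2 fold change was -2.18 ± 0.17 (limma adjusted p = 3.82e-06), from the only probe set of the gene, and the medulloblastoma values lay low on the chip.

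The enzymes specific for cyclic AMP are those of the Pde4, Pde7 and Pde8 families. Pde4b, a target of rolipram, read 51.6, 21.6 and 65.2 in medulloblastoma, against 130 and 136 in cerebellum. The medulloblastomas varied among themselves, yet none came near the cerebellum samples, and the log2 fold change was -1.34 ± 0.28 (limma adjusted p = 0.00351). A second 430A probe set gave -1.51 ± 0.18, while 2 on 430B had -0.28 and -0.42 and did not pass, and a further 2 were too dim to be tested.

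For Pde4d, the other Pde4 gene of the set with high signal, the 2 probe sets gave different calls. The representing one had -0.66 ± 0.26 (adjusted p = 0.124), and the other read 70.0, 46.0 and 53.0 in medulloblastoma, against 192 and 205 in cerebellum, with -1.58 ± 0.20 (limma adjusted p = 3.8e-04). Both probe sets had lower values in every medulloblastoma than in either cerebellum sample. The representing probe set passed the test without medulloblastoma 1 (-0.91, adjusted p = 0.0207) and with quantile normalization (-0.67, adjusted p = 0.043). Pde4a, with 1 probe set, had -0.08 ± 0.18.

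Pde7a was higher. Its representing probe set read 69.5, 62.9 and 67.1 in medulloblastoma, against 41.7 and 37.5 in cerebellum, with a log2 fold change of 0.57 ± 0.16 (limma adjusted p = 0.0164). It was measured by 7 probe sets, all with higher values in every medulloblastoma than in either cerebellum sample, and 5 passed the test, with log2 fold changes of 0.57 to 1.32. The call of the representing probe set was lost without medulloblastoma 1 (0.54, adjusted p = 0.0524), without cerebellum 1 (0.62, adjusted p = 0.081) and without cerebellum 2 (0.51, adjusted p = 0.167).

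The related genes gave other results. Pde8a fell, with 36.2, 32.3 and 34.7 in medulloblastoma, against 69.5 and 66.9 in cerebellum, and a log2 fold change of -0.74 ± 0.15 (limma adjusted p = 0.00275). Pde8b had -0.46 ± 0.17 by its representing probe set (adjusted p = 0.0935) and -1.25 ± 0.16 by a dimmer one that passed the test. Pde7b had -0.01 ± 0.17 by its representing probe set, and its one tested 430B probe set passed the test at -0.84 ± 0.16.

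Enzymes that hydrolyse both cyclic nucleotides included the second higher member of the family. Pde3b, which cyclic GMP inhibits and which is best known from fat and liver as the enzyme through which insulin lowers cyclic AMP, read 326, 261 and 210 in medulloblastoma, against 126 and 102 in cerebellum on 430B. All medulloblastomas were above both cerebellum samples, with a log2 fold change of 1.10 ± 0.25 (limma adjusted p = 0.0119). The call was lost without medulloblastoma 2 (1.10, adjusted p = 0.0522), without cerebellum 1 (1.23, adjusted p = 0.077) and without cerebellum 2 (0.97, adjusted p = 0.181).

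Pde1c, a phosphodiesterase that calcium and calmodulin activate, was not called by its representing probe set (0.14 ± 0.25, adjusted p = 0.736). Of its other 5 probe sets 3 were higher, at 0.70 ± 0.20, 0.99 ± 0.22 and 1.08 ± 0.32. The brightest read 534, 459 and 165 in medulloblastoma, against 156 and 91.3 in cerebellum, and missed the threshold at 1.42 ± 0.44 (adjusted p = 0.0543). In its values medulloblastoma 3 of the 430B chip lay close to cerebellum 1, and the other two medulloblastomas were well above. Medulloblastoma 2 of the 430A chip was the low one of the representing probe set, at 17.7, beside 44.9 and 49.9 in the other medulloblastomas and 27.2 and 34.3 in cerebellum. Without that array the representing probe set passed the test (0.44, adjusted p = 0.0398). These low arrays are the ones whose shared probe sets deviated together across the chips.

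Pde10a, an enzyme abundant in the striatum, had a log2 fold change of -0.60 ± 0.24 by its representing probe set (adjusted p = 0.0839). It passed the test there without medulloblastoma 1 (-0.78, adjusted p = 0.0422) and without medulloblastoma 2 (-0.69, adjusted p = 0.0447). Both of its 430B probe sets were lower, and the brighter of them read 19.7, 17.4 and 19.7 in medulloblastoma, against 68.5 and 93.6 in cerebellum, at -1.46 ± 0.16 (limma adjusted p = 1.24e-04). A further 430A probe set had 0.16 ± 0.14 and did not pass.

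The remaining members of this kind that were tested, Pde1a, Pde1b, Pde2a, Pde3a and Pde11a, had log2 fold changes from -0.33 to 0.24 and did not pass the test. Pde2a, which cyclic GMP stimulates, passed without cerebellum 1 (-0.63, adjusted p = 0.0343). Pde5a, specific for cyclic GMP and the target of sildenafil, had -0.59 ± 0.18 and was just short of the threshold (adjusted p = 0.0552). It read 68.1, 67.2 and 49.0 in medulloblastoma, against 94.4 and 105 in cerebellum, and passed the test without medulloblastoma 3 (-0.47, adjusted p = 0.0321).

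Some genes carry a Pde symbol but do another job or serve the eye. Pde6d, which binds prenylated proteins and delivers them to the primary cilium, had -0.34 ± 0.21, and Pde12, which trims RNA in mitochondria, had 0.19 ± 0.18, and neither passed the test. Pde6a, Pde6b and Pde6c, the catalytic subunits of rod and cone photoreceptors, were among the dimmest 25% of probe sets and were not tested, at 4.77 to 9.69 in medulloblastoma and 2.20 to 9.71 in cerebellum.

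**Figure D3:**
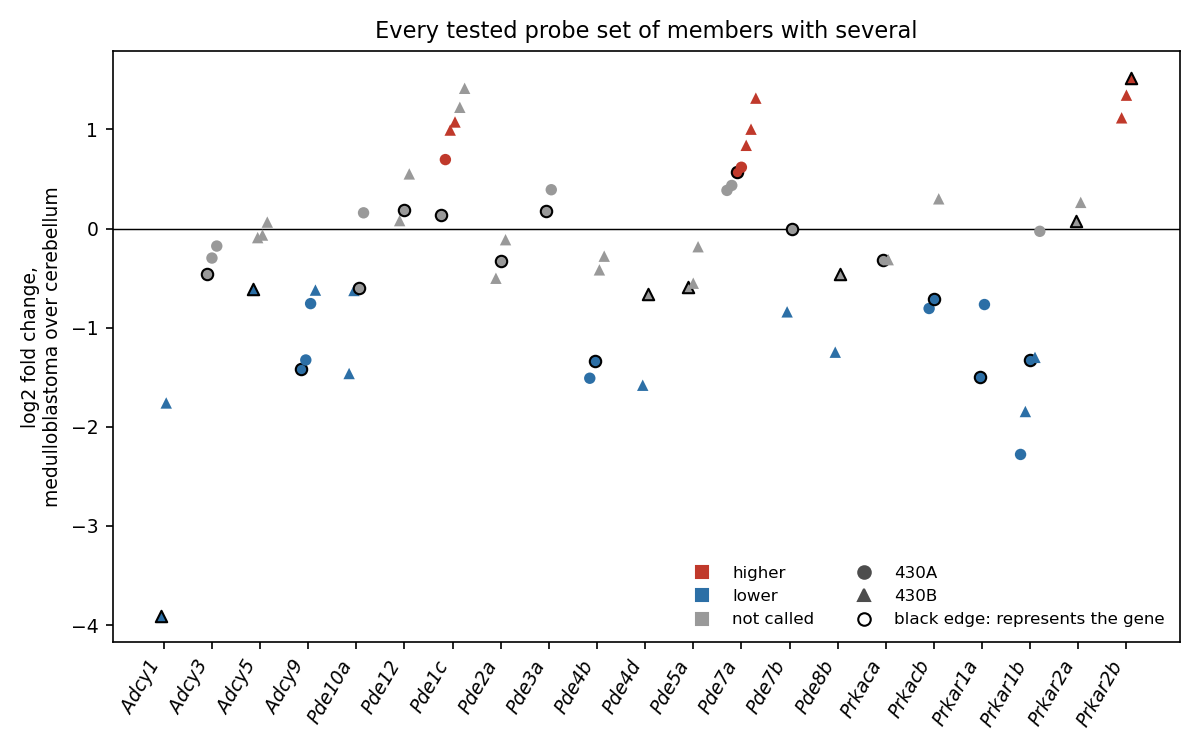
Log2 fold change of every tested probe set of each member with several tested probe sets (y axis, medulloblastoma over cerebellum), by gene along the x axis; colour marks the call, circles are 430A and triangles 430B probe sets, and a black edge marks the representing one. All 4 Adcy9 points and all 3 Prkar2b points passed on 1 side, whereas Pde1c, Pde10a and Pde4d mix called and uncalled points.

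The agreement between probe sets limits what 1 probe set can show. Of 21 members with several tested probe sets, 11 had the same call on all and 10 had at least 1 called and at least 1 not. For 5 members, Pde1c, Pde4d, Pde7b, Pde8b and Pde10a, the representing probe set was not called but another was. Counting any called probe set, 5 members were higher and 15 lower, and 15 had none called. A gene with more probe sets has more ways to be called by this looser rule. The share of all genes by the same rule is not given here, so these counts cannot be set against it.

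The regulatory subunits of PKA changed in both directions. Prkar2b, the type II beta subunit, which anchoring proteins hold at membranes and which is abundant in brain and fat, was higher in medulloblastoma. Prkar1a and Prkar1b, the type I alpha and beta subunits, were lower. Prkar2a, the type II alpha subunit, did not pass the test.

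Prkar2b read 178, 157 and 80.3 in medulloblastoma, against 37.6 and 33.5 in cerebellum. The lowest medulloblastoma was still above both cerebellum samples, and it was medulloblastoma 3 of the 430B chip again. The log2 fold change was 1.52 ± 0.28 (limma adjusted p = 0.00378), and all 3 of its probe sets were higher, at 1.12 to 1.52. The call was lost without cerebellum 2 (1.46, adjusted p = 0.0603), where 1 cerebellum array was left.

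Prkar1a, the subunit whose loss causes Carney complex in humans, had a representing probe set that read 473, 492 and 460 in medulloblastoma, against 1302 and 1449 in cerebellum. Both groups were tight and far apart, with a log2 fold change of -1.50 ± 0.17 (limma adjusted p = 4.75e-05). A second probe set was lower by less, at -0.77 ± 0.22 (adjusted p = 0.0183), and 1 more was too dim to be tested.

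Prkar1b, a subunit found mostly in neurons, read 63.5, 64.1 and 63.9 in medulloblastoma, against 140 and 243 in cerebellum. On this representing probe set the medulloblastomas were nearly identical and the spread lay in the cerebellum. The log2 fold change was -1.33 ± 0.23 (limma adjusted p = 8.94e-04). On the other Prkar1b probe sets the medulloblastomas varied more among themselves, as in 51.5, 32.7 and 46.7 on a further 430A probe set. Of 5 probe sets 4 were lower, at -2.28 to -1.30. The remaining one, at 67.4, 17.5 and 85.5 in medulloblastoma and 44.2 and 58.5 in cerebellum, had overlapping groups and -0.03 ± 0.37.

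Prkar2a read 100, 81.4 and 96.9 in medulloblastoma, against 88.1 and 86.4 in cerebellum. The groups overlapped, with a log2 fold change of 0.07 ± 0.18 (adjusted p = 0.84). Its other tested probe set had 0.26 ± 0.18 and did not pass.

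The catalytic subunits differed less. Prkacb, the beta subunit and a major neuronal form, read 267, 320 and 265 in medulloblastoma, against 463 and 482 in cerebellum, with a log2 fold change of -0.71 ± 0.19 (limma adjusted p = 0.0157). The groups did not overlap, and a second 430A probe set was lower as well, at -0.81 ± 0.19, while a dim 430B probe set had 0.30 ± 0.14 and did not pass. The call was lost without medulloblastoma 1 (-0.67, adjusted p = 0.0534), without medulloblastoma 3 (-0.66, adjusted p = 0.0597), without cerebellum 1 (-0.74, adjusted p = 0.0889), without cerebellum 2 (-0.68, adjusted p = 0.127) and with quantile normalization (-0.44, adjusted p = 0.12).

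Prkaca, the alpha subunit found in most cells, read 63.8, 95.2 and 61.9 in medulloblastoma, against 84.2 and 106 in cerebellum. Medulloblastoma 2 fell among the cerebellum samples, and the difference of -0.32 ± 0.21 did not pass the test (adjusted p = 0.285). Without medulloblastoma 2 it was -0.49 (adjusted p = 0.038). The other Prkaca probe set had -0.31 ± 0.26.

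**Figure D4:**
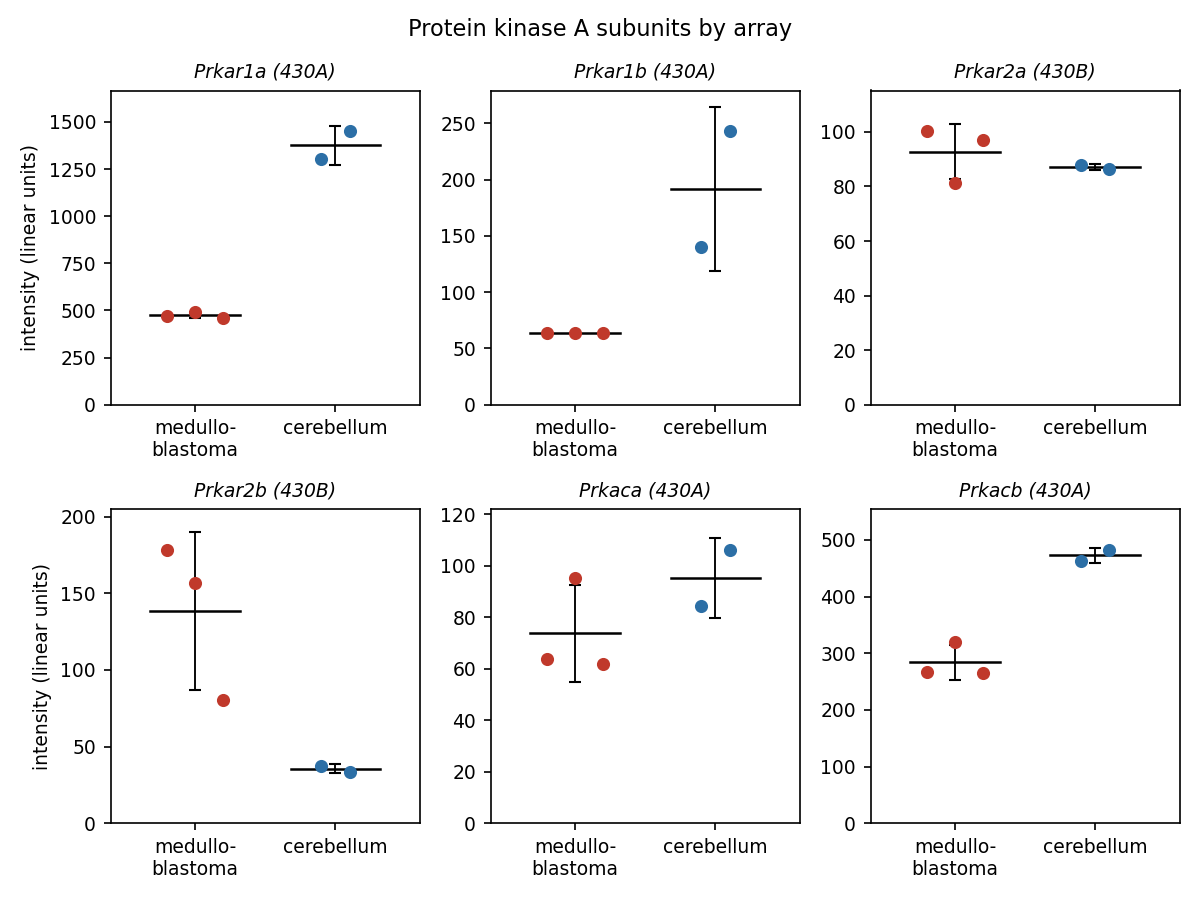
Intensity on each array (y axis, linear units from 0) of the representing probe set of each PKA subunit, medulloblastoma left and cerebellum right; each point is 1 array, and the lines and bars are the mean and SD of 3 medulloblastoma or 2 cerebellum arrays. Prkar2b lies higher in medulloblastoma (80.3 to 178, against 33.5 and 37.6 in cerebellum), Prkar1a, Prkar1b and Prkacb lie lower, and the groups overlap for Prkar2a and Prkaca.

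PKA acts on transcription by phosphorylating CREB, a factor that binds the cyclic AMP response element, so the promoters of the 3 changed regulatory subunits and of Adcy1 were searched for it. The stretches shown are the 100 bases directly before a transcription start listed in RefSeq (GRCm38.p6). They read 5′ to 3′ on the strand of the gene, and these genes are shown because they have large differences in both directions. Where a gene had several listed starts, a start with the element or its core was preferred. Prkar1a had 6 listed starts, Prkar1b 5, Prkar2b 2 and Adcy1 1, so the genes with more starts had more stretches in which a match could occur. Capitals mark the element TGACGTCA or its shorter core TGACG, which reads CGTCA on the other strand. Prkar1a lies at chr11:109650849-109650948 on the plus strand, Prkar1b at chr5:139150002-139150101 on the minus strand, Prkar2b at chr12:32061278-32061377 on the minus strand and Adcy1 at chr11:7063333-7063432 on the plus strand.
Prkar1a: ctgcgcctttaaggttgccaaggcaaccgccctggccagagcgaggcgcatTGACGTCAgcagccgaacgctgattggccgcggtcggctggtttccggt
Prkar1b: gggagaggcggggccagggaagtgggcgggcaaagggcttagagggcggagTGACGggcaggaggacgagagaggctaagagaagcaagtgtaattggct
Prkar2b: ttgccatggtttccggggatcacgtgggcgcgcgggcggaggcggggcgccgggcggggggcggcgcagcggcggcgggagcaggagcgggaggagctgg
Adcy1: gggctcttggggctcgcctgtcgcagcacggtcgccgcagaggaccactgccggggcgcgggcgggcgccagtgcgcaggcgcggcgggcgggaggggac

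The full element was found in the Prkar1a stretch, beginning at position -49 from the start, and the shorter core in the Prkar1b stretch, also at -49. Neither was found in these stretches of Prkar2b and Adcy1. Over all listed starts, 30 of the 38 members matched the promoter table, with 67 windows that run from before to just after the start. The full element was in 2 windows (2.99%), both of Prkar1a, beside 1.79% of all 32851 windows, and the core, which the full element contains, was in 15 windows of 13 members (22.4%), beside 20.8%. The GLI site GACCACCCA, TGGGTGGTC on the other strand, was in none of the members' windows and in 0.253% of all windows. By gene, the core was in 43.3% of the 30 matched members and in 23% of all genes, where members had 2.23 windows per gene and all genes 1.22. A match is only a match of letters.

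The genes around the enzymes were described by 10 lists of the pathway, of whose genes 103 were tested. Of these 12 were higher and 36 lower, with a median log2 fold change of -0.21. The 12 include Akap7, whose probe sets were called in opposite directions. Of all 14702 genes tested, 10.7% were higher and 16% lower, with a median of -0.05. The count of each list below is to be read beside these shares, and no list was tested as a set. The lists were chosen with earlier results of these data known, so the comparison with these shares is not independent of the data. All values that follow are log2 fold changes, medulloblastoma over cerebellum, with their SE from limma.

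Upstream of the cyclases, 1 of 7 G protein alpha subunits of the Gs and Gi classes was higher and 4 were lower. Gnai1, an inhibitory subunit, had -2.60 ± 0.19, Gnao1, the main inhibitory-class subunit of neurons, had -1.46 ± 0.28, and Gnal, the stimulatory subunit of olfactory and striatal neurons, had -1.41 ± 0.15. Gnai3, another inhibitory subunit, was higher at 0.98 ± 0.28, a call lost without medulloblastoma 1 (0.89, adjusted p = 0.0766), without medulloblastoma 3 (0.81, adjusted p = 0.078) and without cerebellum 2 (0.70, adjusted p = 0.224).

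Among receptors that couple to Gs, 2 of 12 were higher and 1 was lower. Calcrl, the receptor for calcitonin gene-related peptide and adrenomedullin, had 1.73 ± 0.37. Gpr161, an orphan receptor of the cilium that raises cyclic AMP and restrains Hedgehog signalling, read 43.1, 38.9 and 42.2 in medulloblastoma, against 9.81 and 13.2 in cerebellum, a difference of 1.06 ± 0.13. With the 430B arrays scaled on the probe sets shared with 430A it was 0.68 (adjusted p = 0.195). Gpr12, an orphan receptor with constitutive activity, was lower at -0.61 ± 0.15, and this call was lost on leaving out medulloblastoma 1 (adjusted p = 0.0559), medulloblastoma 2 (adjusted p = 0.0794), cerebellum 1 (adjusted p = 0.121) or cerebellum 2 (adjusted p = 0.149).

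Of 11 receptors that couple to Gi, 2 were higher and 5 lower. The somatostatin receptor Sstr2 read 750, 408 and 522 in medulloblastoma, against 31.0 and 14.9 in cerebellum, and had 3.87 ± 0.28. The chemokine receptor Cxcr4, which granule neuron precursors carry, read 220, 204 and 197 in medulloblastoma, against 22.0 and 10.2 in cerebellum, and had 2.82 ± 0.20. Both were far above cerebellum on every medulloblastoma array. Grm4, a glutamate receptor of granule neuron terminals, had -2.65 ± 0.27, and the GABA-B receptor subunit Gabbr1 had -2.16 ± 0.22.

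Of 16 PKA inhibitors and anchoring proteins, 2, Akap13 and Akap7, were higher by their representing probe sets and 4 were lower. The inhibitor peptides Pkib and Pkia had -1.68 ± 0.15 and -0.75 ± 0.25, and the Pkia call was lost without medulloblastoma 1 (-0.70, adjusted p = 0.115), without cerebellum 1 (-0.62, adjusted p = 0.254), without cerebellum 2 (-0.88, adjusted p = 0.106), with quantile normalization (-0.55, adjusted p = 0.112) and with equal array medians (-0.69, adjusted p = 0.0583). Akap13, an anchoring protein, was higher at 1.24 ± 0.20. The probe sets of the anchoring protein Akap7 disagreed: the representing one was higher at 1.39 ± 0.22 and the brightest was lower at -1.74 (adjusted p = 1.77e-04), so its place among the higher genes rests on the choice of probe set. The count of 4 lower genes ranged from 1, without medulloblastoma 1, to 5.

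Downstream, none of the 6 other cyclic nucleotide effectors tested passed, and the smallest p-values were those of Bves (0.19 ± 0.15, adjusted p = 0.37) and Popdc2 (0.20 ± 0.16, adjusted p = 0.388), membrane proteins that bind cyclic AMP. Of 9 CREB family members, coactivators and salt-inducible kinases, Creb1 was higher at 0.58 ± 0.17 and Sik3 lower at -0.98 ± 0.20. The Creb1 call was lost without medulloblastoma 1 (0.53, adjusted p = 0.0823) and without cerebellum 1 (0.34, adjusted p = 0.318), and that of Sik3 without medulloblastoma 2 (-0.89, adjusted p = 0.0572) and without cerebellum 2 (-0.87, adjusted p = 0.117). Means over the probe sets of each gene also ended both calls, with 0.30 for Creb1 and -0.42 for Sik3.

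Genes known to be induced through CREB were lower or not called. Of 15 tested, 10 were lower and none higher, with a median of -1.17. Scg2 and Penk, which encode secreted neuropeptide precursors, had -3.02 ± 0.21 and -2.88 ± 0.20. The immediate-early gene Fos read 27.7, 36.5 and 18.5 in medulloblastoma, against 158 and 222 in cerebellum, and had -2.25 ± 0.22, and the coactivator gene Ppargc1a had -2.13 ± 0.16. Several of these genes are also expressed by mature neurons, whose markers were lower on the same arrays, and the part of that in these values was not tested.

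Of 10 genes of cyclic GMP synthesis and its kinases, 5 were lower and none higher. Nos1, the neuronal nitric oxide synthase, had -2.10 ± 0.26, Gucy1b1, the beta subunit of the nitric oxide receptor cyclase, had -1.51 ± 0.19, and Prkg1, the cyclic GMP-dependent kinase of Purkinje cells, had -1.27 ± 0.15. Gucy1a2, an alpha subunit of that cyclase, had -0.97 ± 0.23, and its call was lost without medulloblastoma 2 (-1.02, adjusted p = 0.0549), without cerebellum 1 (-0.96, adjusted p = 0.116) and without cerebellum 2 (-0.99, adjusted p = 0.115).

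Of 10 PKA substrates and partners in Hedgehog signalling, 4 were higher and none lower. Gli2 and Gli1, transcription factors of the pathway, had 2.37 ± 0.16 and 1.45 ± 0.17. Sufu, which holds GLI proteins inactive, had 1.37 ± 0.22, and Gpr161 was the fourth. Gli3, another GLI factor of the list, did not pass the test, at -0.15 ± 0.15 (limma adjusted p = 0.591). Of 8 neuronal substrates of PKA and the cyclic GMP kinase, 6 were lower and 1 higher. Ppp1r17, a phosphatase inhibitor of Purkinje cells that is also among the Purkinje cell markers, had -4.08 ± 0.25, the glutamate receptor subunit Gria1 had -2.89 ± 0.21 and the release-site protein Rims1 had -2.61 ± 0.19. Arpp21 had -1.47 ± 0.23, but -0.42 by its brightest probe set (adjusted p = 0.393).

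**Figure D5:**
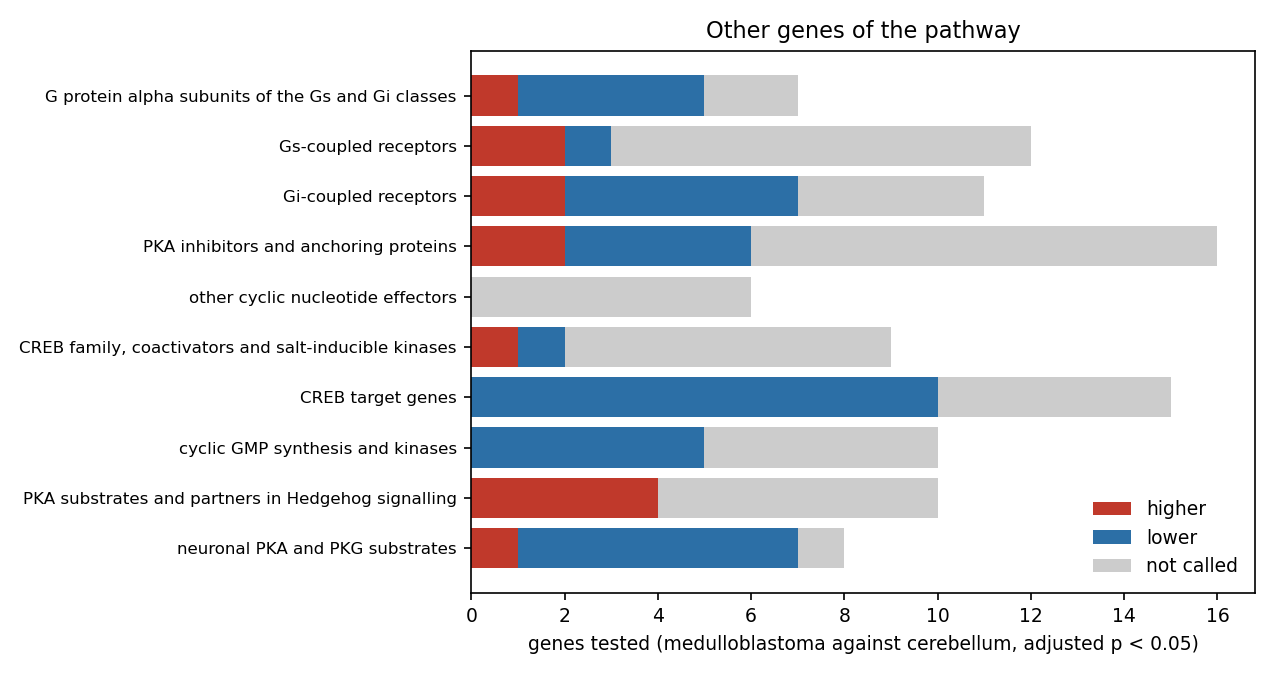
Number of tested genes in each of the 10 pathway lists (x axis; 1 bar per list), divided into genes higher in medulloblastoma, lower, and not called. The CREB target genes hold 10 lower and no higher genes, and the Hedgehog partners 4 higher and no lower ones. Of all genes tested, 10.7% were higher and 16% lower.

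The firmness of the members' calls varied. Of the 15 called members, 7 (Adcy1, Adcy7, Adcy9, Pde4b, Pde9a, Prkar1a and Prkar1b) kept call and direction in every alternative that could test them, out of 21 run. The alternatives included a limit of 1 on the size of the log2 fold change, which a member with a smaller change could not pass. This count therefore depends in part on the size of the change. Of the 20 uncalled members 9 passed the test in at least 1 alternative, and no member reversed direction while called. Without cerebellum 2 the count of higher members was 1 and that of lower members 8, and without cerebellum 1 the counts were 2 and 11. Adcy8 and Pde8a, whose changes were below that limit, kept their calls on leaving out any array.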

How the data were processed

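The deposited values are intensities, 1 per probe set and array, on a linear scale. For the authors' software and scaling, nothing was given in the sources used here. No detection measure was used. Per the labels, Trizol-extracted RNA was made into biotinylated cRNA for hybridisation. Each chip was fitted by itself with limma 3.58.1 in R 4.3.3 on log2(intensity + 16), with an intensity trend in eBayes and no block. The lowest 25% of probe sets by mean were left out, and Benjamini-Hochberg adjustment ran over all tested probe sets of a chip, two-sided, with calls at adjusted p below 0.05. Array medians differed by at most 0.07 on that scale, so no further normalization was applied. The 16 added before taking logs understates changes of dim probe sets. All 10 value columns were mapped to samples, and 0 were left unmapped.

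A gene is represented by 1 tested probe set naming it alone: 430A before 430B, without a suffix for shared sequence, then the highest mean. Array values are given for all PKA subunits, for members called with a log2 fold change of at least 1 in size, and for others where probe sets disagree or a result turns on them. Up to 4 called genes with the largest changes are named per pathway list, and up to 3 of the brightest per marker list. The members and lists were chosen with earlier results of these data known. The labels call the samples biological replicates without naming the animals, so p-values measure the spread between these samples, which may be in part technical. The number of arrays limits the precision.

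Promoters are those of RefSeq (GRCm38.p6), searched on both strands with Python 3.11.15. The alternatives were the pseudocount, filter, normalization, trend, replicate block, thresholds, choice of probe set and arrays left out. Because tumour numbers seemed to differ between chips, leaving out tumours matched across chips by the deviations over shared probe sets was added after seeing the data. The code of the fit was run on simulated data with planted changes and independent noise, which does not measure the error rate in these data.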

Additional observations from a re-analysis of the deposited data

How the results depend on the processing

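The count of called probe sets was 5460 on 430A and 2975 on 430B, with 4 higher and 11 lower members and 12 higher and 36 lower pathway genes. With the replicate number as a block the 430B count was 5217. The numbers pair nothing known: deviations of same-numbered tumour and cerebellum arrays correlated at -0.03 and 0.17 on 430A and at 0.11 and 0.02 on 430B, and with 2 cerebellum arrays only 2 pairs exist. The block ended no member's call. At adjusted p below 0.01, 1768 probe sets on 430B and 2 higher members passed. With a log2 fold change of at least 1 in size, 2682 and 1496 probe sets, 6 lower members and 23 lower pathway genes passed. Leaving out 1 array at a time, the counts ranged from 3332 (without cerebellum 2) to 6516 on 430A and from 1485 (without cerebellum 2) to 4845 (without medulloblastoma 3) on 430B. They ranged from 1 to 5 higher and from 8 to 15 lower members, and from 10 to 14 higher and from 24 to 40 lower pathway genes. The upper ends of 5, 15, 14 and 40 came from leaving out medulloblastoma 2 on 430A with medulloblastoma 3 on 430B. That pairing was added after seeing the data. The count of 6516 on 430A came from leaving out medulloblastoma 2. Where 1 cerebellum array was left, it was assumed to vary like the tumours. Akap7, at 1.39 with all probe sets above the filter, was -1.74 by its brightest probe set and with 50% of probe sets left out. The cause of these changes was not tested. Scaling 430B on the shared probe sets moved its median by -0.38 and the split to 480 higher and 2079 lower, against 1326 and 1649. Prkar2b and Pde3b then had 1.14 and 0.71 and stayed called. Quantile normalization gave 2733 higher and 2666 lower on 430A, against 2231 and 3229. With 3 and 2 arrays, small differences could not be told from the spread.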
